A study of Mus musculus with 6 samples.

Results

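Cytosine methylation in the fibroblast genome is written, copied and removed by a small set of proteins, and the transcripts of 10 of their genes are described here: the DNA methyltransferase genes Dnmt1, Dnmt3a, Dnmt3b and Dnmt3l, the Uhrf1, Uhrf2 and Hells genes, and the Tet1, Tet2 and Tet3 genes. They were chosen by name: a probe set was included when the platform annotation gave it 1 of these 10 symbols and no other gene. This gave 25 of the 45037 probe sets outside the manufacturer's controls. The 10 genes are part of 18193 gene symbols that have a probe set of their own. The cells were passage 4 dermal fibroblasts, explanted from the skin of newborn B6 mice (0 to 2 days old, mixed gender). The treated group of 3 cultures received 5-aza-2'-deoxycytidine, a cytidine analog, at 5 µM. Exposure lasted 96 hours with fresh drug each 24 hours, and a recovery of 24 hours followed. The control group was 3 cultures left untreated. RNA of each culture went on 1 Affymetrix expression array, and replicates came from separate explants, per the design text.

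DNMT1 copies methylation onto newly made DNA strands, and UHRF1 brings it there by binding half-methylated CpG sites. DNMT3A and DNMT3B place methylation at new sites, and DNMT3L, which has no catalytic activity of its own, assists them, mainly in germ cells. HELLS is a chromatin remodeller needed for full methylation of repeats. The TET enzymes oxidise methylcytosine, a step towards its removal. 5-aza-2'-deoxycytidine is built into DNA in place of deoxycytidine and binds the methyltransferases covalently when they act on it, so it depletes them as proteins. The arrays measured transcripts, not proteins and not DNA methylation.

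The cultures carried fibroblast transcripts: all 12 fibroblast markers gave signals above the median of the array on all 6 arrays, and their summed signal was 43008 to 50628 units on treated arrays, against 73913 to 83820 units on control arrays. Of these 12, 9 fell (75%) and 1 rose (8.33%), against 21.6% and 19.5% of all tested genes. The collagens Col1a1 (-1.70) and Col3a1 (-1.79), the matrix gene Fbln1 (-2.19) and the growth factor receptor Pdgfra (-3.21) were among those that fell (log2 change, treated minus control). Fn1 was the marker that rose (0.26). Vim (0.13; limma, adjusted p = 0.242) and Sparc (-0.13, adjusted p = 0.269) did not pass. Of 6 skeletal muscle markers 3 were tested and 2 rose (66.7%, against 19.5% of all tested genes), the actin Acta1 and the intermediate filament Des. The summed signal of the 3, most of it from Acta1, was 4597 to 5330 units on treated arrays, against 662.9 to 857.9 on control arrays. Acta1 alone gave 4255 to 5053 units on treated arrays, against 477.8 to 646.5 on control arrays. Ckm changed by 0.24 (limma, adjusted p = 0.303), and the muscle regulator Myog, dim on every array, gave 6.475 to 14.04 units on treated arrays, against 14.58 to 39.92 on control arrays. The summed signals of the 4 tested leukocyte markers (609.9 to 832.6 units on treated arrays, 531.6 to 692.1 on control arrays) and of the 3 tested keratinocyte markers (207.4 to 421.5 on treated arrays, 212.6 to 485.8 on control arrays) overlapped between the groups. So did those of 3 endothelial markers (219.1 to 300.1 on treated arrays, 232.2 to 269.1 on control arrays), of 5 melanocyte and Schwann cell markers (457.8 to 578.7 on treated arrays, 481.1 to 627.7 on control arrays) and of the adipocyte marker Fabp4, the 1 tested of its list (278.6 to 283.9 on treated arrays, 130.9 to 303.4 on control arrays). Single markers in these lists changed: the leukocyte marker Cd68 rose by 1.08 (limma, adjusted p = 0.00703), endothelial Cdh5 rose by 0.83 (adjusted p = 0.0473) and Tek fell by 0.78 (adjusted p = 0.0322), and melanocyte Pmel fell by 1.22 (adjusted p = 0.0356). Cdh5 exceeded the array median on the treated arrays only and Tek on the control arrays only, so each was tested through the group where it was higher. The leukocyte marker Ptprc, the endothelial marker Pecam1 and the keratinocyte markers Krt14 and Trp63 lay below the array median on every array at their brightest probe set, and no marker was at 0. In bulk RNA, fewer cells of a type and less RNA per cell cannot be told apart, and the part of the cells' makeup in the results below was not tested.

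Transcripts of 5 of the 10 genes were lower in treated cultures at 1 or more probe sets: Dnmt1, Dnmt3a, Dnmt3b, Uhrf2 and Tet1. The levels used are signals scaled to a common level, and changes are log2 differences, treated minus control, with a standard error (SE) from limma. Only probe sets brighter than the array's median on 3 or more of the 6 arrays were tested, and a change was called at an adjusted p under 0.05. The filter left 14 of the 25 probe sets, in 8 of the 10 genes. Of these 14, 6 fell and 0 rose, which is 42.9% called, against 38.7% of all 23388 tested probe sets called in either direction. Separately by direction, the shares over all tested probe sets were 20.3% lower and 18.4% higher. The total share of called members was thus near that of the array as a whole, while the members called were all in the direction of lower signal in treated cultures. Dnmt3a gave 2 of the 6 calls. At the brightest tested probe set of each gene, the measure used for the related gene lists below, only Dnmt3a and Uhrf2 were called lower. By that measure 21.6% of all tested genes were lower. Dnmt1, Dnmt3b and Tet1 were called only at a dimmer probe set.

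The filter let 4 of the 14 through with fewer than 3 treated arrays above the median, and 1 with fewer than 3 control arrays above it. Of the 4, Dnmt3b 1449052_a_at and Tet1 1455425_at were called lower and lay above the median on control arrays only. Dnmt3a 1460324_at was also called lower, and lay above the median on 1 treated and 3 control arrays. The counts of probe sets above and the 9 of 14 below include all of these. With the filter on the mean signal neither Dnmt3b 1449052_a_at nor Tet1 1455425_at was tested, and 4 members were lower and 0 higher. The fit with no filter covers all 25 probe sets. There 8 were lower in treated cultures and 0 higher, which is 32.0% called, against 9.8% of all probe sets called lower and 9.07% called higher. The median log2 change of the 25 was -0.39, against 0.0042 over all probe sets. In 12 of the 25 every treated array lay below every control array, and in 1 every treated array lay above. Over all probe sets the shares without overlap were 17.3% and 16.8%. Among the 14 tested these counts were 9 (64.3%) and 1, against 26.2% and 24.1% of all tested probe sets.

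**Figure D1:**
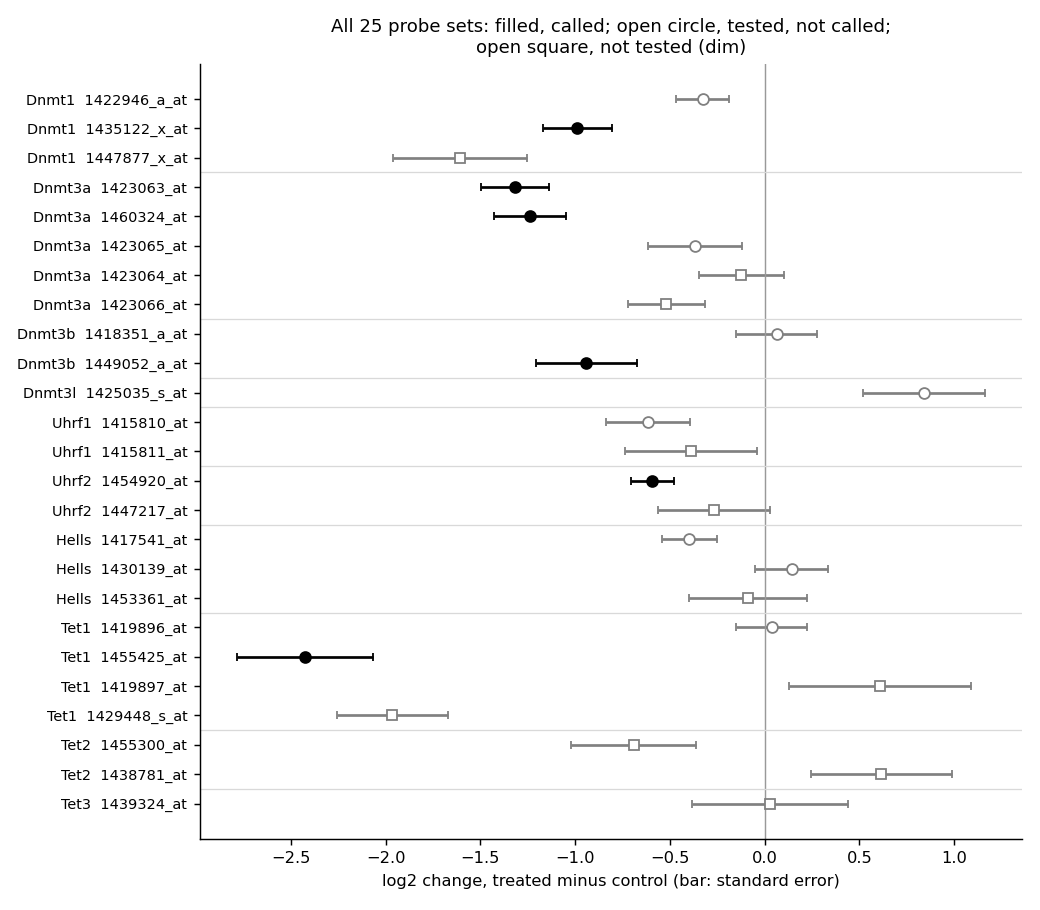
The log2 change (treated minus control, horizontal axis) with its standard error for all 25 probe sets, grouped by gene. Filled circles passed the test, open circles were tested and did not pass, and open squares were too dim to be tested and carry the standard error of the fit with no filter. All 6 filled circles lie left of 0, and probe sets of Tet1, Dnmt3b, Hells and Tet2 lie on both sides of it.

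The maintenance methyltransferase Dnmt1 (chromosome 9) has 3 probe sets, and each was lower on all 3 treated arrays than on any control array. The brightest, 1422946_a_at, gave 225.7, 235.6 and 225.6 signal units on treated arrays 1 to 3, against 358.5, 264.8 and 255.1 on control arrays 1 to 3. The treated arrays lay close together, and control array 1 stood above the other controls. The change was -0.33 ± 0.14 (SE; 95% interval -0.64 to -0.011) and did not pass (limma, adjusted p = 0.0961). Without control array 1 it was -0.18 (adjusted p = 0.309). The second, 1435122_x_at, gave 92.2, 83.94 and 81.75 units on treated arrays, against 228.3, 177.6 and 143 on control arrays. It fell by log2 0.99 ± 0.18 (limma, adjusted p = 0.00216), a mean of 86.0 ± 5.51 units in treated cultures and 183 ± 42.9 in controls (SD, n = 3 each). The dimmest, 1447877_x_at, was dim and not part of the test: 5.957, 4.741 and 18.55 units on treated arrays, against 40.99, 41.54 and 59.54 on control arrays, and with no filter its change was -1.61 ± 0.35 (limma, adjusted p = 0.0122). The ending _x marks probe sets in which some probes also match other sequences, and _a marks those that match several transcripts of 1 gene.

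The size of the Dnmt1 change differed between its tested probe sets. Per array, the log2 signal of the brightest probe set minus that of the second was higher in treated cultures by 0.66 ± 0.13 (SE; limma over 8456 pairs of probe sets of 1 gene, adjusted p = 0.0257). Such a difference was called for 9.8% of all pairs. The call was lost with no filter (adjusted p = 0.0757) and on leaving out any array but treated array 1, with adjusted p-values up to 0.0792 (treated array 2).

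Uhrf1 (chromosome 17), which guides DNMT1 to replicated DNA, was lower on every treated array at its tested probe set without passing the test. That probe set, 1415810_at, gave 97.12, 100.9 and 91.62 units on treated arrays, against 197.5, 174 and 103.6 on control arrays. Control array 3 lay near the treated arrays, and the other control arrays well above them. The change was -0.62 ± 0.22 (SE; 95% interval -1.11 to -0.12; limma, adjusted p = 0.052). Without control array 3 it was -0.88 and passed (adjusted p = 0.00381), and without control array 1 or 2 it was -0.44 (adjusted p = 0.181) or -0.53 (adjusted p = 0.146). The dimmer probe set 1415811_at (30.4 to 48.69 units on treated arrays, 32.57 to 82.41 on control arrays) had overlapping groups.

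Hells (chromosome 19) showed the same arrangement of arrays at its brightest probe set, 1417541_at. It gave 167.7, 164.6 and 160.4 units on treated arrays, against 245.7, 239.7 and 178.5 on control arrays, again with control array 3 nearest to the treated ones. The change of -0.40 ± 0.14 did not pass (95% interval -0.72 to -0.072; limma, adjusted p = 0.055), and without control array 3 it was -0.54 and passed (adjusted p = 0.0114). Without control array 1 or 2 it was -0.32 (adjusted p = 0.17) or -0.33 (adjusted p = 0.153). A second probe set, 1430139_at, gave 129.5, 152.4 and 120.3 units on treated arrays, against 120.3, 93.33 and 153.2 on control arrays, a change of 0.14 ± 0.19 (adjusted p = 0.604). The groups overlapped there and at the dim probe set 1453361_at, and the difference between the tested probe sets was not called (-0.54 ± 0.27; limma over all pairs, adjusted p = 0.248).

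Uhrf2 (chromosome 19), a relative of UHRF1 that also binds methylated DNA, fell. Its tested probe set 1454920_at gave 262.2, 277 and 277.6 units on treated arrays, against 364.4, 420.4 and 466.9 on control arrays. The groups were well apart, with means of 272 ± 8.72 units in treated cultures and 417 ± 51.3 in controls (SD, n = 3 each). The change was -0.59 ± 0.11 (SE; limma, adjusted p = 0.00268), and it passed in all 16 alternative settings, with adjusted p-values from 0.00215 to 0.0491. The dim probe set 1447217_at (29.53 to 57.17 units on treated arrays, 42.34 to 57.91 on control arrays) overlapped between groups.

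**Figure D2:**
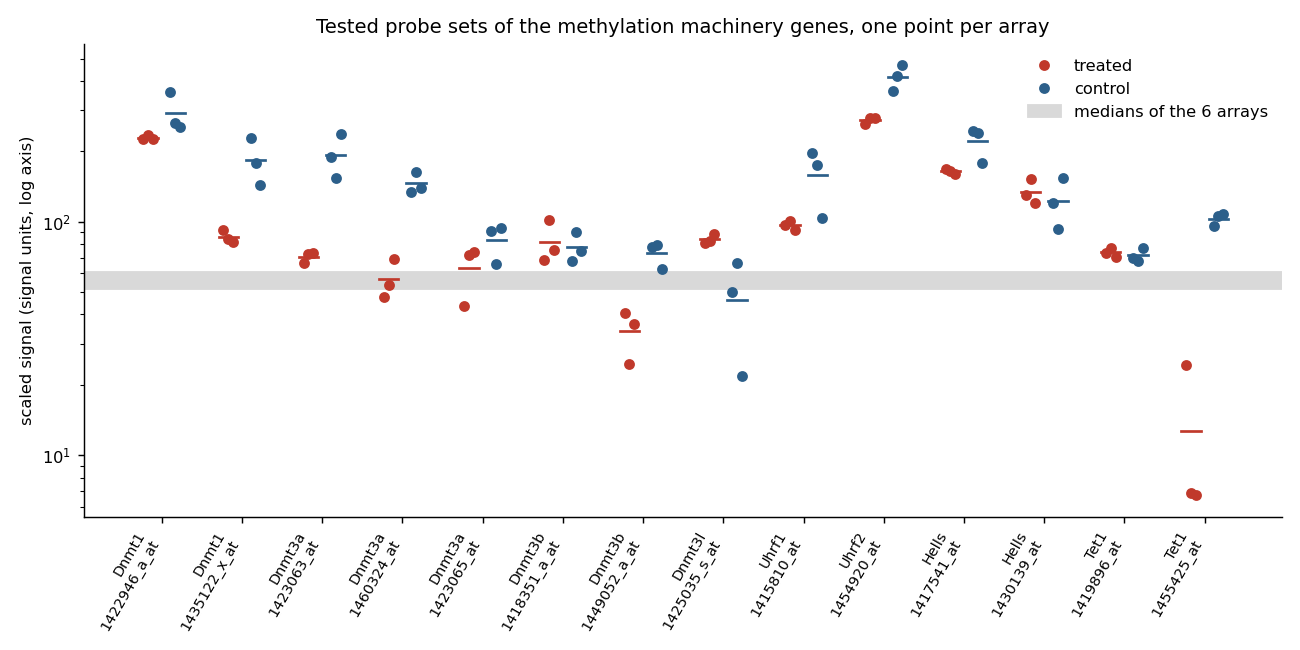
Scaled signal (log axis, signal units) of the 14 tested probe sets on each array, with treated arrays left and control arrays right for each probe set, and horizontal bars at the group means of 3 arrays. The grey band spans the medians of the 6 arrays, from 51.41 to 60.61 units. Treated arrays of Dnmt3a 1423063_at and 1460324_at, Uhrf2 and Tet1 1455425_at lie apart from their controls, and those of Tet1 1419896_at and Dnmt3b 1418351_a_at lie among them.

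Dnmt3a (chromosome 12), a methyltransferase for new sites that is active in many differentiated cells, fell at 2 of its 5 probe sets. All 5 list the same sequence accession in the annotation. At 1423063_at the treated arrays gave 66.17, 72.5 and 73.54 units, against 189.8, 153.7 and 236.4 on control arrays, so that the control mean was 2.73 times the treated mean. The change was -1.32 ± 0.18 (SE; limma, adjusted p = 0.000358). At 1460324_at the treated arrays gave 47.4, 53.36 and 69.38 units, against 134.5, 163.6 and 139.3 on control arrays, a change of -1.24 ± 0.19 (adjusted p = 0.000739). Both calls held in all 16 alternative settings, with adjusted p-values up to 0.00209 and 0.00473. At 1460324_at only 1 treated array lay above the array median, against all 3 control arrays.

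The third tested Dnmt3a probe set, 1423065_at, gave 43.64, 72.22 and 74.46 units on treated arrays, against 90.96, 65.92 and 93.94 on control arrays. Its groups overlapped, and its change of -0.37 ± 0.25 did not pass (95% interval -0.93 to 0.19; limma, adjusted p = 0.285). Without treated array 1, the lowest, it was -0.15 (adjusted p = 0.652). Set against 1423063_at on the same arrays, its change was different: the log2 change of 1423063_at minus that of 1423065_at was -0.95 ± 0.18 (limma over all pairs, adjusted p = 0.0212). That call was lost with no filter (adjusted p = 0.0549) and on leaving out any array but treated array 1, with adjusted p-values up to 0.071 (control array 3). The difference between 1423063_at and 1460324_at was -0.080 ± 0.22 (adjusted p = 0.853). The remaining probe sets, 1423064_at and 1423066_at, gave at most 13.49 units on any array and were not tested. All 5 changes lay below 0.

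Dnmt3b (chromosome 2), the other methyltransferase for new sites, fell at 1 of its 2 probe sets. At 1449052_a_at the treated arrays gave 40.79, 24.45 and 36.54 units, against 78.1, 79.41 and 62.39 on control arrays. All treated arrays lay below the array median and all control arrays above it, so the probe set entered the test through the controls. The change was -0.94 ± 0.27 (SE; limma, adjusted p = 0.0193). The call was lost without treated array 2 (adjusted p = 0.0561) and with the signals unscaled (adjusted p = 0.0514), and the probe set was not tested without any 1 control array or with the filter on the mean signal. At the other probe set, 1418351_a_at, the treated arrays gave 68.24, 102.1 and 75.75 units, against 67.74, 89.88 and 75.01 on control arrays. These overlapped throughout, with a change of 0.063 ± 0.21 (95% interval -0.41 to 0.54; limma, adjusted p = 0.845). The difference between the probe sets was 1.00 ± 0.28 and was not called (limma over all pairs, adjusted p = 0.0691).

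Dnmt3l (chromosome 10), the inactive partner known from germ cells, had higher signals on every treated array than on any control array, and did not pass the test. Its probe set 1425035_s_at gave 80.81, 82.73 and 88.39 units on treated arrays, against 49.88, 66.68 and 21.78 on control arrays. The treated arrays lay close together and above every control array, while the controls were spread widely. The change was 0.84 ± 0.32 (SE; 95% interval 0.11 to 1.57; limma, adjusted p = 0.067). Without control array 3, the lowest control, it was 0.47 (adjusted p = 0.16). It passed without control array 2 (1.11, adjusted p = 0.026) and with upper quartile scaling (0.90, adjusted p = 0.0473). The ending _s marks probes shared between transcripts, so the signal may not come from Dnmt3l alone.

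Tet1 (chromosome 10) gave differing pictures at its 4 probe sets, with a fall at some and no called change at others. At 1455425_at the signal fell to 24.35, 6.879 and 6.735 units on treated arrays, against 95.36, 105.8 and 107.9 on control arrays. All treated arrays lay below the array median, and the probe set entered the test through the controls. The change was -2.42 ± 0.36 (SE; limma, adjusted p = 0.000579, and 0.00139 with no filter). Treated signals were near the pseudocount of 9.66 units, so the size of the change depends on it: -3.05 with the smaller pseudocount and -1.98 with the larger. The dim probe set 1429448_s_at, whose probes are shared between transcripts, gave 2.46, 2.603 and 2.399 units on treated arrays, against 30.89, 29.24 and 58.01 on control arrays, and its change with no filter was -1.97 ± 0.29 (adjusted p = 0.00162).

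At 1419896_at, by contrast, the treated arrays gave 73.42, 77.34 and 70.49 units, against 70.07, 67.65 and 77.45 on control arrays. The groups overlapped, with a change of 0.037 ± 0.19 (95% interval -0.38 to 0.46; limma, adjusted p = 0.898). The difference between the tested Tet1 probe sets was 2.46 ± 0.29 (limma over all pairs, adjusted p = 0.0055). It was called in each of the 12 alternative settings in which both were tested, with adjusted p-values up to 0.0256. The dim probe set 1419897_at ranged from 8.581 to 56.7 units on treated arrays and from 7.335 to 20.15 on control arrays, and its groups overlapped. The position of each set's probes within the gene was not used here.

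Neither Tet2 (chromosome 3) nor Tet3 (chromosome 6), the other methylcytosine oxidases, had a tested probe set. Tet2 1455300_at gave 32.37, 59.21 and 41.61 units on treated arrays, against 46.51, 91.93 and 99.95 on control arrays, and Tet2 1438781_at gave 40.14, 39.51 and 32.2 units on treated arrays, against 25.72, 8.955 and 33.59 on control arrays. With no filter their changes were -0.69 ± 0.33 (limma, adjusted p = 0.211) and 0.62 ± 0.37 (adjusted p = 0.334), in opposite directions and with overlapping groups. Tet3 1439324_at gave 33.41, 11.43 and 14.21 units on treated arrays, against 11.22, 12.08 and 35.42 on control arrays, a change of 0.028 ± 0.41 (adjusted p = 0.979). Signals this low were not separated from background, as no detection calls were used.

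The annotated starts of these genes differ in their content of CpG, the dinucleotide that the methyltransferases act on. RefSeq windows of 300 bases (250 before and 50 after a start, GRCm38.p6) were at hand for all 10 genes, 17 windows in all. Over all 32851 windows of the table the median was 7 CpG. The Dnmt3a windows held 46, 47 and 18 CpG, that of Dnmt3b 30, that of Uhrf2 28 and that of Tet1 17. Of the 3 Dnmt1 windows the outermost held 2, and the inner ones 12 and 33. The 3 Dnmt3l windows held 6, 4 and 3, all below the median of the table. The stretches before the outermost of the listed starts are shown for 3 of the genes with called probe sets and CpG above the median. Dnmt3b also meets this and is not shown. Stretches are also shown for the CpG-poor outermost start of Dnmt1 and first start of Dnmt3l. Each is written 5′ to 3′ along the gene's strand with every CpG in capitals, and those of Uhrf2 and Tet1 end where the annotated gene begins. Methylation of these sites was not measured.
Dnmt3a, chr12:3806730-3806979, plus strand: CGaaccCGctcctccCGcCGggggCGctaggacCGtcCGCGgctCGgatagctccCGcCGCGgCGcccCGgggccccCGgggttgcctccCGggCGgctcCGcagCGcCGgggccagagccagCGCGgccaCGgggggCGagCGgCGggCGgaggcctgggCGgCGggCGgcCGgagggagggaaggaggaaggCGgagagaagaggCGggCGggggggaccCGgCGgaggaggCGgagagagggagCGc
Uhrf2, chr19:30030263-30030429, plus strand: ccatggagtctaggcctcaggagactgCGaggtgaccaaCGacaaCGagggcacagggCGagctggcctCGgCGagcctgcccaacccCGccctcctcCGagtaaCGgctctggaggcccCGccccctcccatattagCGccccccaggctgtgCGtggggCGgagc
Tet1, chr10:62887470-62887574, minus strand: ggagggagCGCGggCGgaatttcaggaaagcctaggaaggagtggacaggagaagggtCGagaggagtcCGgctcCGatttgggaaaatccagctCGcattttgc
Dnmt1, chr9:20959889-20960138, minus strand: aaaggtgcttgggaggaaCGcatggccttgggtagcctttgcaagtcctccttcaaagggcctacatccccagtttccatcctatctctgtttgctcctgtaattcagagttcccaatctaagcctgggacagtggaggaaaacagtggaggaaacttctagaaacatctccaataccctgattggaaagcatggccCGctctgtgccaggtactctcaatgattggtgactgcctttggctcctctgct
Dnmt3l, chr10:78042037-78042286, plus strand: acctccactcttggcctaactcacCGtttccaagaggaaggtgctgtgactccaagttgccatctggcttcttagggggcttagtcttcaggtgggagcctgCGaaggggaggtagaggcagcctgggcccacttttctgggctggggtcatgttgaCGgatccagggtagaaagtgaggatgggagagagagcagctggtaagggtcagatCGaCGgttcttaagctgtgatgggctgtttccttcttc

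**Figure D3:**
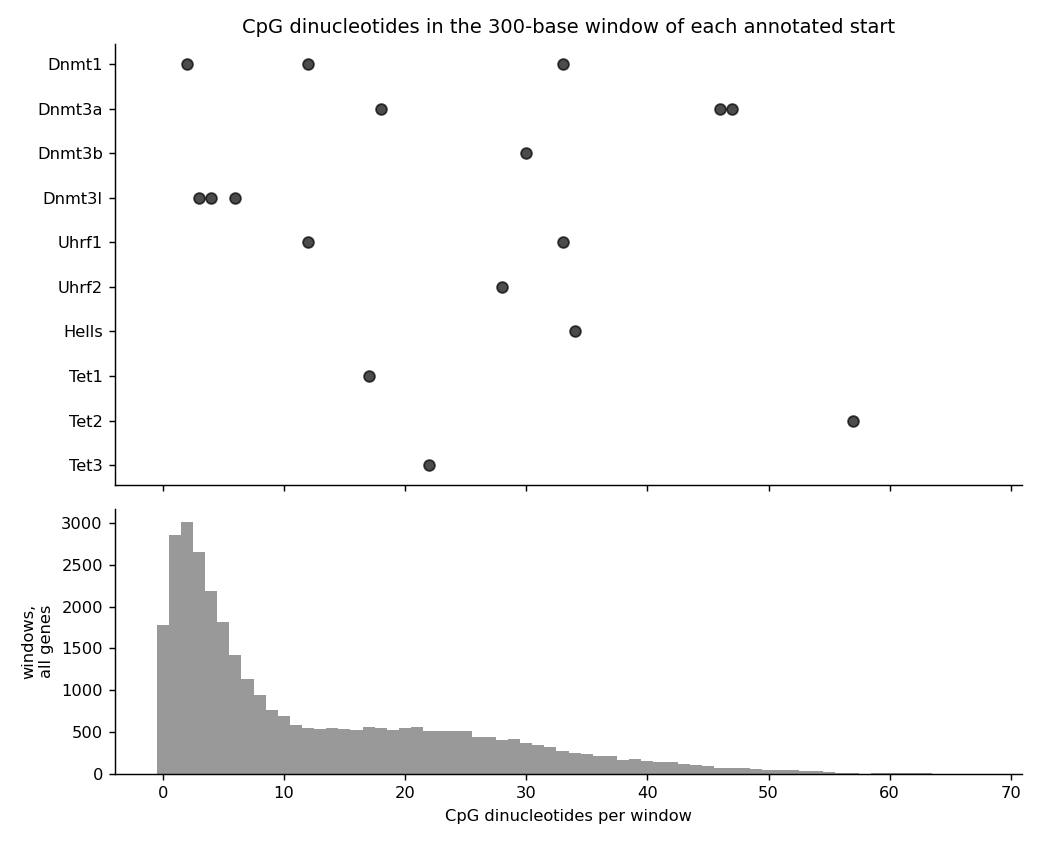
CpG dinucleotides per 300-base window (horizontal axis). The upper panel has 1 point for each annotated start of the 10 genes, and the lower panel shows the number of windows of all genes at each count. Windows of Tet2 (57) and Dnmt3a (46 and 47) lie far to the right, and those of Dnmt3l (3, 4 and 6) lie within the main peak at low counts.

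Genes needed in S phase often carry sites for E2F, a family of cell cycle transcription factors. The letters searched were TTCCCGC and also TTGGCGC, as well as TTGCCGC, and last TTCGCGC. Both strands were searched, overlapping matches were counted separately, and each motif holds a CpG. They occurred in 9.6% of all windows and in 5 of the 17 windows of these genes, which belonged to Dnmt1, Uhrf1, Uhrf2 and Hells. CCAAT, searched in the same way, occurred in 37.4% of all windows and also in 5 of the 17. A match is a description of the letters, not of binding. Matches on the gene's strand in the window of the first listed start are shown for Uhrf1, Uhrf2 and Hells, since Uhrf1 and Hells are set beside division genes next. The E2F letters are in capitals, and they begin 48, 57 and 61 bases before the start of that window's transcript. The Uhrf2 stretch lies after the point where the annotated gene begins, so it is inside the gene.
Uhrf1, chr17:56303278-56303307, plus strand: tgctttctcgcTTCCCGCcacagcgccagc
Uhrf2, chr19:30030445-30030474, plus strand: cgagatccgggTTGGCGCcgtgacctccat
Hells, chr19:38930918-38930947, plus strand: accaccgggttTTCCCGCgaaagagaagcg

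Genes of mitosis fell, and genes of S phase moved both ways. Of 19 tested mitosis genes 17 fell and 0 rose, with a median log2 change of -0.91, against a median of -0.0032 over 12194 tested genes, of which 21.6% fell and 19.5% rose. Ccnb2, a cyclin of mitotic entry, fell by log2 1.79 ± 0.16 (SE). The centromere histone Cenpa changed by -1.35 ± 0.13, the proliferation marker Mki67 by -1.66 ± 0.19 and the spindle protein Nusap1 by -1.38 ± 0.18. Of 19 tested S phase genes 7 fell and 3 rose, with a median of -0.027. The helicase subunit Mcm6 (-0.66 ± 0.13) and the primase Prim1 (-0.48 ± 0.11) fell, while the ribonucleotide reductase subunit Rrm2 (1.12 ± 0.14) and cyclin Ccne2 (0.65 ± 0.12) rose. With the signals unscaled, 3 S phase genes fell and 1 rose. These lists were chosen with earlier results of these data known.

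The order of the control arrays at 4 probe sets of Dnmt1, Uhrf1 and Hells was set beside that of the division genes. The mean log2 signal of the 19 mitosis genes was 7.30, 7.28 and 7.25 on treated arrays 1 to 3, against 8.53, 8.36 and 7.97 on control arrays 1 to 3. That of the 19 S phase genes was 8.16, 8.11 and 8.22 on treated arrays, against 8.37, 8.28 and 8.04 on control arrays. Control array 3 was the lowest control in both lists, as it was in 1422946_a_at and 1435122_x_at of Dnmt1, in Uhrf1 1415810_at and in Hells 1417541_at. At Hells 1430139_at and the dim Dnmt1 1447877_x_at it was the highest control. At the dim Uhrf1 1415811_at and Hells 1453361_at it was the lowest. The mean of the mitosis genes was separated between the groups. That of the S phase genes was not, where 7 single genes fell and 3 rose. The part of division in the changes of Dnmt1, Uhrf1 and Hells was not tested. Among the tested probe sets of the other genes, control array 3 was also the lowest control in Dnmt3b 1449052_a_at and Dnmt3l 1425035_s_at. It was the highest in Dnmt3a 1423063_at and 1423065_at, in the tested probe set of Uhrf2, and in Tet1 1419896_at and 1455425_at. It lay between the other controls in Dnmt3a 1460324_at and Dnmt3b 1418351_a_at. The lowest place was thus not particular to Dnmt1, Uhrf1 and Hells.

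**Figure D4:**
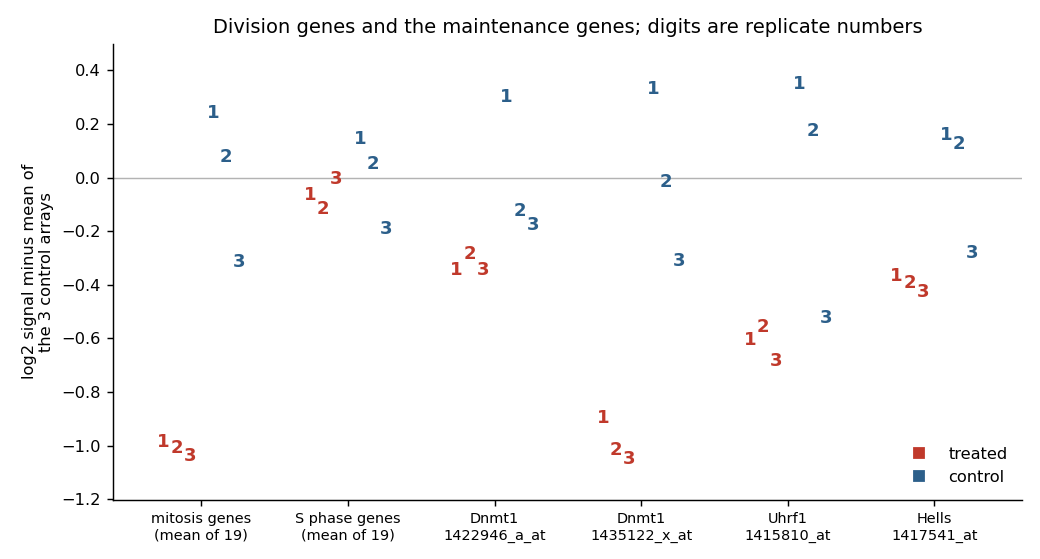
Log2 signal minus the mean of the 3 control arrays (vertical axis) for the mean of 19 mitosis genes, the mean of 19 S phase genes, and 4 probe sets of Dnmt1, Uhrf1 and Hells. Each digit is the array with that replicate number, treated to the left and control to the right. Control array 3 is the lowest control in all 6 columns, and treated and control arrays interleave only in the S phase column.

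Among partners of maintenance methylation some fell and 1 rose. Of 12 tested members 4 fell (33.3%) and 1 rose (8.33%), against 21.6% and 19.5% of all tested genes, with a median of -0.22. The histone deacetylase Hdac2 changed by -0.69 ± 0.087 (SE), the H3K9 methyltransferase genes Ehmt1 by -0.63 ± 0.088 and Ehmt2 by -0.60 ± 0.12, and the clamp loader subunit Rfc1 by -0.71 ± 0.12. The transcription elongation gene Paf1 was the member that rose (0.78 ± 0.18). The replication clamp Pcna, to which DNMT1 binds, changed by 0.020 (limma, adjusted p = 0.895), and Usp7, a deubiquitinase that binds DNMT1 and UHRF1, by 0.10 (adjusted p = 0.515). With the signals unscaled, 0 members rose.

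Genes linked to the placing of new methylation fell in 5 of 8 tested cases (62.5%) and rose in 1 (12.5%), against 21.6% and 19.5% of all tested genes, with a median of -0.43. The H3K27 methyltransferase Ezh2 (-0.65 ± 0.10, SE), the Polycomb gene Bmi1 (-0.55 ± 0.093) and the H3K36 methyltransferase Nsd1 (-0.67 ± 0.13) fell, as did Trim28 and Setd2. Morc1, a germ-cell gene of transposon silencing, rose by 2.41 ± 0.41, with 82.3 ± 16.5 units in treated cultures and 8.48 ± 7.98 in controls (SD, n = 3 each), where the size of the change depends on the pseudocount. It entered the test through the treated arrays, since its control signals lay below the array medians. With the signals unscaled, 3 fell. With the filter on the mean signal 0 rose.

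Of the genes that act after the TET enzymes, in excision of oxidised methylcytosine and repair, 2 of 12 tested members rose (16.7%) and 0 fell, with a median of -0.16. Over all tested genes 19.5% rose and 21.6% fell, so the share that rose was near the background. These were the stress-induced Gadd45g (0.93 ± 0.13, SE) and the repair polymerase Polb (0.44 ± 0.12). The glycosylase Mbd4 changed by -0.71 without passing (limma, adjusted p = 0.11), and Gadd45a by -0.41 (adjusted p = 0.0583). With the signals unscaled, 1 rose.

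The isocitrate dehydrogenases Idh1 and Idh2, which make the 2-oxoglutarate that TET enzymes consume, both fell. Idh2 gave 201 ± 25.1 units in treated cultures and 770 ± 78.4 in controls (SD, n = 3 each), a change of -1.89 ± 0.12 (SE; limma, adjusted p = 3.12e-06). Idh1 gave 1053 ± 55.7 units in treated cultures and 2196 ± 122 in controls, a change of -1.05 ± 0.080 (adjusted p = 9.37e-06). They were the 2 called members of the 8 tested in the list of Tet cofactors and partners, whose median was -0.11. That is 25% lower and 0% higher, against 21.6% and 19.5% of all tested genes, near the background for lower calls.

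Methyl donor genes went both ways: 4 of 11 tested members fell (36.4%) and 3 rose (27.3%), against 21.6% and 19.5% of all tested genes, with a median of 0.085. Mat2b, the regulatory subunit of the enzyme that makes S-adenosylmethionine, changed by -1.26 ± 0.078 (SE), the serine hydroxymethyltransferase Shmt2 by -0.63 ± 0.10 and the folate enzyme Mthfd2 by -0.52 ± 0.085. Ahcyl1, related to the hydrolase that clears the spent methyl donor, rose by 0.38 ± 0.076. The hydrolase itself, Ahcy, changed by 0.099 (limma, adjusted p = 0.522). With the signals unscaled, 0 members rose.

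The genes whose pattern over the 6 arrays was most like that of each main member were found by the distance between centred log2 signals over 11632 genes. For Dnmt3a they were Dapk1 (distance 0.134), Il17rd (0.201) and Insig1 (0.21), with changes of -1.35, -1.30 and -1.41. For Dnmt1 they were Tanc1 (0.074), Tmem179b (0.137) and Dusp7 (0.139), each with control array 1 highest. For Uhrf1 they were Cdpf1 (0.195), Bcat2 (0.239) and the mitotic kinase Cdk1 (0.274). Cdk1 gave 353.4, 393.1 and 429.5 units on treated arrays, against 760.9, 657.4 and 441.9 on control arrays, with control array 3 nearest to the treated ones as in Uhrf1. Control array 3 was likewise the lowest control in Cdpf1 (75.32 units) and Bcat2 (85.29 units). A shared order of arrays follows from choosing genes by likeness on these same arrays. With 6 arrays in 2 groups, such likeness reflects the difference between groups first.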

How the data were processed

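The deposited values are linear MAS5 signal intensities, 1 per probe set and array; MAS5 is named per the submitters' processing notes, without a version, and detection calls were not used here. Their overall level differed between arrays: 2% trimmed means ran from 149.2 to 223.9 units. Each array was scaled to a trimmed mean of 193 units (trim share 0.02), without the 64 control probe sets, and log2(signal + 9.66) was taken, where the pseudocount is 0.05 of that mean. A fold change on this scale understates the change of dim probe sets. Tests used lmFit and eBayes with an intensity trend (limma 3.58.1, R 4.3.3), two-sided, with Benjamini-Hochberg adjustment over all 23388 probe sets above the array median on at least 3 arrays. The number of arrays limits the precision. No GEO column beyond the 6 arrays was used.

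Differences between probe sets of 1 gene were fitted per array over all such pairs. Each list gene stood for its brightest tested probe set by mean log2 signal. Names came from the platform annotation, in which 34945 probe sets had 1 symbol, 932 several and 9160 none; 34741 had an Entrez identifier found in GRCm38.p6, with 0 symbols altered. Promoter windows are from RefSeq. Members, lists and the naming rule were chosen with earlier results of these data known. The rule named all probe sets of the 10 genes and up to 4 called genes with the smallest p in each list. It also named the 3 genes most like Dnmt1, Dnmt3a and Uhrf1. Other list members named (Paf1, Trim28, Setd2, Pcna, Usp7, Mbd4, Gadd45a and Ahcy) were chosen after their values were seen. So were the markers Fn1, Vim, Sparc, Ckm, Myog, Fabp4, Ptprc, Pecam1, Krt14 and Trp63. Groups came from the sample titles. Alternatives were other scalings, pseudocounts and filters, other variance settings, the replicate number as a block, and each array left out. The procedure was tested on simulated data.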

Additional observations from a re-analysis of the deposited data

How the results depend on the processing

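Of the repeats of tests on single probe sets and pairs, 276 stayed on their side of the threshold, 16 lost and 6 gained a call, and 6 changed sign, all 6 without a call. The sign changes were Dnmt3b 1418351_a_at without treated replicate 2 (-0.088) or control replicate 1 (-0.019), Tet1 1419896_at unscaled (-0.029), Hells 1430139_at without control replicate 2 (-0.024; range over arrays left out -0.024 to 0.31), and the Dnmt3a pair 1423063_at and 1460324_at without treated replicate 3 (0.027) or control replicate 3 (0.097; range -0.31 to 0.097). Leaving out 1 array gave 4 to 6 member probe sets lower and 0 to 1 higher. It gave 0 to 3 called pairs, where the Tet1 and Dnmt3b pairs were not tested without a control array, since their dimmer members then exceeded the median on only 2 arrays. Over all tested probe sets it gave 3578 to 4193 lower and 3191 to 3898 higher. Unscaled, 3042 were lower and 1977 higher, and 3 genes of the related lists were higher, against 10. With upper quartile scaling, 1 member was higher. The median change over all tested probe sets stayed between -0.071 (unscaled) and 0.062 (upper quartile). Same-numbered arrays correlated in their deviations from group means by 0.19, 0.17 and 0.072, each higher than with other numbers, a hint and not part of the stated design. With the replicate block 4966 tested probe sets were lower and 4575 higher, 8 members were lower, among them Uhrf1 (adjusted p = 0.0331) and Hells (adjusted p = 0.044), and 1 pair, Tet1, was called, while the Dnmt1 pair (adjusted p = 0.0507) and the Dnmt3a pair of 1423063_at and 1423065_at (adjusted p = 0.0562) were not. The causes were not tested.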
